A study of Drosophila melanogaster with 35 samples.

Results

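Pupal wings that overexpressed the transcription factor Cabut were compared with pupal wings that overexpressed E2F1 together with its partner DP, both taken 36h after pupa formation. The comparison holds all 4 arrays labelled as Cabut at 36h and all 4 arrays labelled as dE2F1 with dDP at 36h, which are 8 of the 35 arrays of the series, and they were chosen by their labels alone. The study asked how expression in the Drosophila wing changes under each of these regulators, at the wandering larval stage of the last instar (L3) and at 24h and 36h after pupa formation. Each sample was total RNA from 10 dissected wings, hybridised to a 1-colour NimbleGen array with probes for 15473 FlyBase transcripts.

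All flies, controls included, carried the driver apterous-gal4, a UAS-GFP reporter and the repressor tubulin-Gal80temp.sens. The Cbt line also carried UAS-Cabut, the E2F1DP line also carried UAS-dE2F1 and UASdDP, and the control line carried no further transgene. Flies grew at 18 °C and were moved to 28 °C, where the Gal80 repressor no longer holds Gal4 in check. The hour of that move is not given in the sources used here. Since apterous is a gene of the dorsal compartment, its driver leaves ventral cells without transgene expression, and each sample mixes driven with undriven wing cells. The labels describe 4 independent samples per group, and the E2F1DP group at L3 has 3 arrays because 1 sample failed the submitters' quality control. In such bulk RNA, fewer cells of a type and less RNA per cell cannot be told apart.

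E2F1 and DP bind DNA as a pair and switch on genes for DNA replication and cell division. Cabut is a zinc-finger protein of the Krüppel-like family that also acts on transcription. In normal development the cells of the pupal wing stop dividing at about the middle stage sampled here, and they then form hairs, cuticle and veins.

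The array files name transcripts by FlyBase ID only, and the reference gene table tied 17 of the 15473 IDs to 1 gene each. A further 27 IDs matched several genes and 15429 matched none, so nearly all of the results below are about transcripts whose gene is not named. For 8 of the 17, among them NaPi-III, SuUR, HDAC3, fend, Fatp1 and CG16974, the match rests on a synonym for 1 open reading frame of the transcript, which may carry another frame. The IDs of E2f1, Dp and cbt were not among the matches, so the level of the overexpressed genes was not analysed by name here. Their transcripts may be among the unnamed ones that were tested, which could not be checked. None of the 28 cell type markers listed for wing epithelium, dorsal compartment, muscle, neuron, glia, hemocyte, fat body and trachea was matched either, and the tissue label could not be checked against them.

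The lines differed widely at 36h. By limma at an adjusted p under 0.05, Cbt exceeded E2F1DP in 1888 transcripts (12.2% of those tested) and fell short of it in 1746 (11.3%), together 23.5%. Values are on the log2 scale of array intensity, where a difference of 1 is a doubling. Of these calls, 843 of the higher and 853 of the lower differed by at least 2-fold, 215 and 244 by at least 4-fold, and 24 and 17 by at least 16-fold. The median size of a called difference was 0.95, against 0.28 over all transcripts with a median standard error of 0.24. The median signed difference over all transcripts was 0.01. Normalization between arrays, whose settings are not given in the sources used here, tends to hold this value near 0. The 4 arrays of one line lay entirely above or below the 4 of the other for 2995 of the calls, or 82.4% of them (19.4% of all transcripts). Of all transcripts, called or not, 25.4% were separated in this way.

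**Figure D1:**
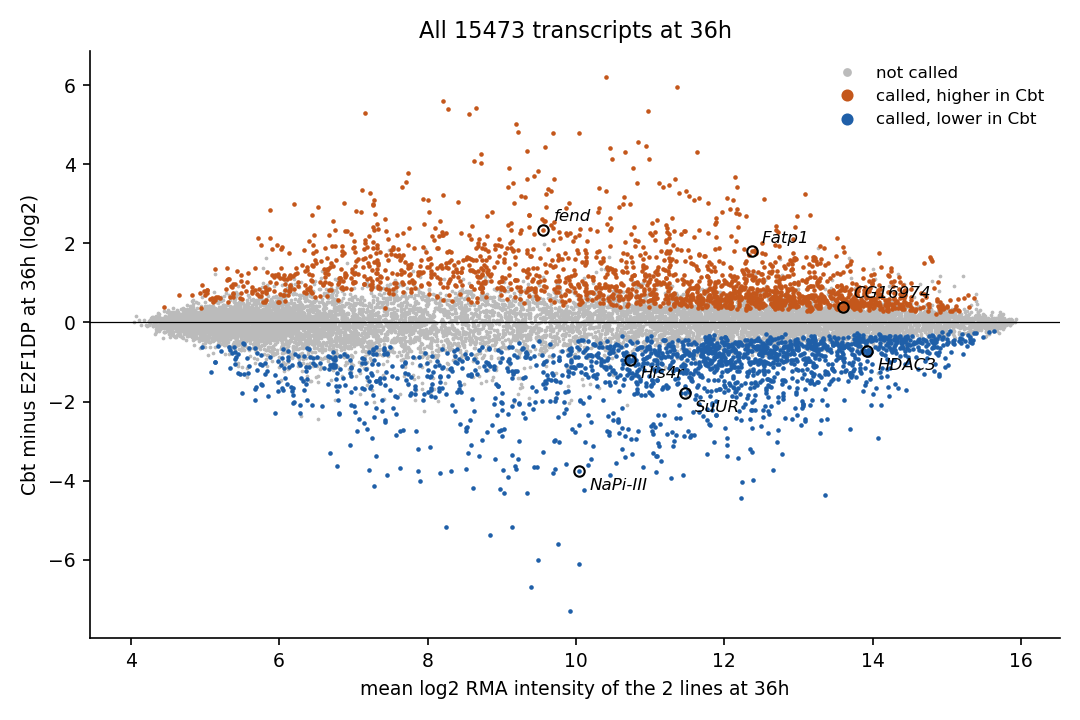
Difference between Cbt and E2F1DP wings at 36h (log2, vertical axis) against the mean log2 intensity of both lines (horizontal axis) for all 15473 transcripts, with calls coloured by direction and the 7 called named genes circled. The 1888 higher and 1746 lower calls spread about evenly above and below 0, and few calls lie among the dimmest transcripts.

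Calls were unevenly spread over the range of intensity. With transcripts split by mean level into 4 classes of equal size, 3.90% were called in the dimmest class, then 22.7%, 37.4% and, in the brightest class, 30.0%. No background call was used, and a mean log2 level under 6.20, the limit of the lowest 25% of transcripts, is described here as dim. In 147 of the transcripts higher in Cbt the E2F1DP mean was dim, and in 111 of those lower in Cbt the Cbt mean was dim, so that the size of these differences is less certain than their direction. A further 83 calls had both means in the dim range.

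The arrays of a line resembled each other more than those of the other line. Over all transcripts, Pearson correlations between arrays were 0.975 to 0.989 within Cbt and 0.982 to 0.992 within E2F1DP, and 0.952 to 0.971 between the lines. The same probes were read on every array, which keeps all of these values high. Which arrays were normalized together is not given in the sources used here. Cbt replicate 1 lay farthest from the mean of its group, with a root mean square deviation of 0.47 against 0.28 to 0.38 for the other Cbt arrays. Without it, 1564 transcripts were called higher and 1590 lower. In the E2F1DP group replicate 1 lay farthest, at 0.41 against 0.31 to 0.33 for the others. Without that E2F1DP array, 1580 transcripts were called higher and 1623 lower. The labels name no slide, so the array number in each file name was taken as the slide, which gave 9. By these numbers the lines met on slide 7, which held Cbt replicate 4 and E2F1DP replicates 1 and 4. Of 2175 transcripts called when those arrays were left out, 2131 (98.0%) had the same sign on slide 7 alone, and a model with slide as a term called 1579 higher and 1285 lower.

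Among the named genes the largest difference was in NaPi-III, named for a sodium-dependent phosphate transporter of type III. Its log2 level was 8.26, 9.27, 7.49 and 7.63 in Cbt replicates 1 to 4 and 11.68, 11.93, 11.74 and 12.35 in E2F1DP replicates 1 to 4. Every E2F1DP array was above every Cbt array, while the controls had a mean of 7.92 ± 0.80 (SD, n = 4) and overlapped the Cbt arrays. The level in Cbt was lower by 13.5-fold, a difference of -3.76 (SE 0.40, 95% interval -4.57 to -2.95) with an adjusted p of 1.31e-08 by limma. On slide 7 alone the difference was -4.38.

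SuUR, whose protein suppresses the replication of late-replicating chromatin in polytene chromosomes, also had lower levels in Cbt wings. The 4 Cbt arrays read 11.01, 10.13, 10.57 and 10.58 and the 4 E2F1DP arrays 12.42, 12.33, 12.35 and 12.34. The E2F1DP arrays were nearly identical to each other and all were above the Cbt arrays, which lay around the control mean of 10.83 ± 0.15 (SD, n = 4). The difference of -1.79 (SE 0.25), or 3.45-fold, had an adjusted p of 2.53e-06 by limma. SuUR was the only one of the 50 entries of the replication list that an ID matched, so the list as a whole was not analysed here, and none of the 41 mitosis entries was matched.

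Of 26 chromatin entries, HDAC3 and His4r were matched, and both were lower in Cbt. HDAC3, a histone deacetylase, read 13.77, 13.46, 13.49 and 13.53 in Cbt and 14.34, 14.31, 14.29 and 14.18 in E2F1DP wings. The groups did not overlap, and the difference of -0.72 (SE 0.11) had an adjusted p of 8.76e-06 by limma. The HDAC3 control mean of 13.34 ± 0.09 (SD, n = 4) was below both lines.

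His4r is a replacement gene for histone H4, a protein with many other gene copies, and whether its probes tell these apart was not tested. It read 9.14, 10.59, 10.95 and 10.38 in Cbt and 10.98, 10.95, 11.32 and 11.56 in E2F1DP wings. The groups just overlapped, and Cbt replicate 1 was far below the others. The difference was -0.94 (SE 0.31) with an adjusted p of 0.0253 by limma. Without Cbt replicate 1 it was -0.56 with an adjusted p of 0.185, and the call also ended without E2F1DP replicate 3 (adjusted p = 0.0601) or replicate 4 (adjusted p = 0.0878). With slide as a term the adjusted p for His4r was 0.054, and in a fit of the 8 compared arrays alone it was 0.0999.

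Higher in Cbt wings was fend, or forked end, known for a role in the guidance of motor axons. It read 10.81, 10.65, 11.12 and 10.34 in Cbt and 7.78, 8.51, 8.40 and 8.86 in E2F1DP wings. Every Cbt array was above every E2F1DP array, and the control mean of 10.26 ± 0.49 (SD, n = 4) lay near the Cbt levels. The difference of 2.34 (SE 0.24), or 5.07-fold, had an adjusted p of 6.83e-09 by limma. The other matched entries of the 23 for matrix and adhesion did not pass: LanA, a laminin alpha chain, differed by 0.48 (95% interval 0.06 to 0.91, adjusted p = 0.0993 by limma), and alpha-Spec, alpha spectrin of the membrane skeleton, by 0.42 (adjusted p = 0.158).

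Also higher in Cbt was Fatp1, which encodes a transporter that brings fatty acids into cells. Its levels were 13.57, 12.88, 13.71 and 12.91 in Cbt and 11.31, 11.53, 11.69 and 11.35 in E2F1DP wings. No arrays overlapped, and the control mean was 13.78 ± 0.19 (SD, n = 4). The difference of 1.80 (SE 0.17), or 3.47-fold, had an adjusted p of 1.45e-09 by limma. Fatp1 and NaPi-III were the matched genes among 20 entries for metabolism and transport, and they differed in opposite directions.

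CG16974, for which no role is given here, read 13.90, 13.65, 13.59 and 14.05 in Cbt and 13.49, 13.09, 13.53 and 13.49 in E2F1DP wings. The groups did not overlap, but the gap was narrow. Its difference of 0.40 (SE 0.15) had an adjusted p of 0.0456 by limma, and 9 of 20 alternative settings ended the call. Leaving out Cbt replicate 1 (adjusted p = 0.112) or 4 (0.171), or E2F1DP replicate 1 (0.0548), 2 (0.193) or 4 (0.0566), each did so.

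**Figure D2:**
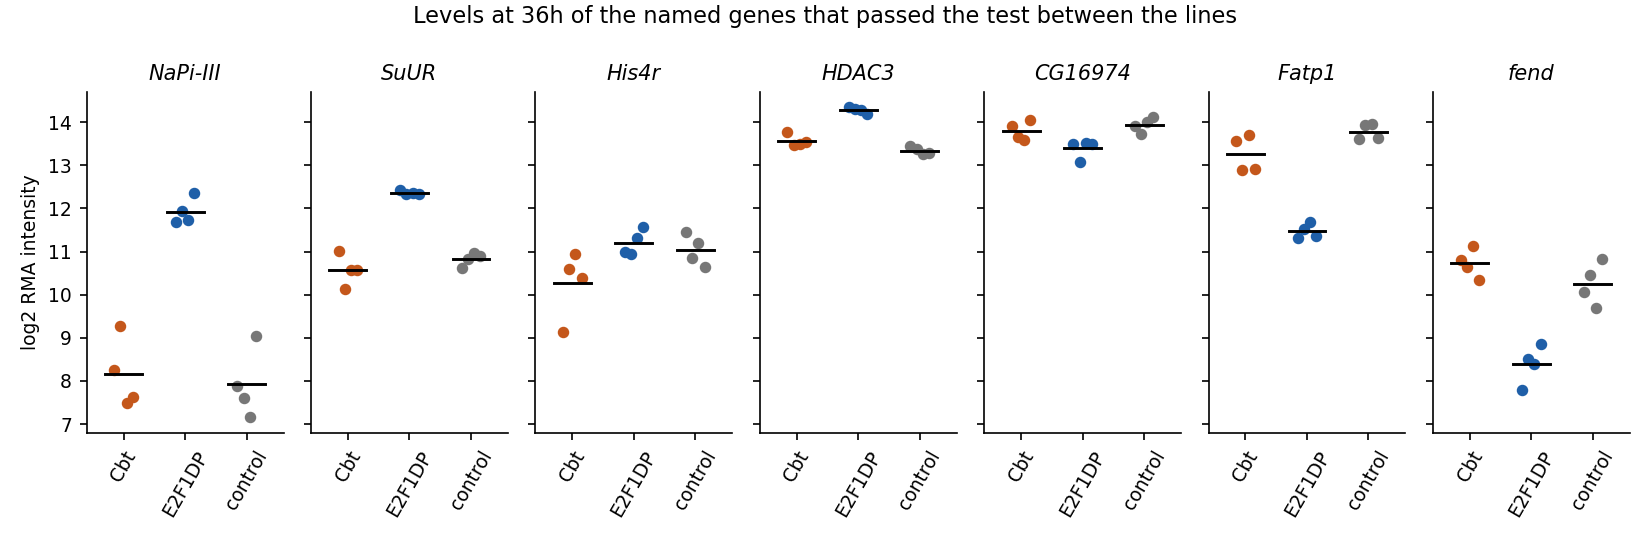
Log2 RMA intensity at 36h in each of the 4 Cbt, 4 E2F1DP and 4 control arrays (points) with the group mean (line) for the 7 named genes that passed the test between the lines. For NaPi-III, SuUR, HDAC3, CG16974, Fatp1 and fend the Cbt and E2F1DP points do not overlap, and for His4r they meet near 10.95.

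The remaining 10 named genes did not pass the test at 36h, so 3 of the 17 were called higher and 4 lower, where 12.2% and 11.3% of all transcripts were. They include the 3 matched entries of 25 for growth. The nucleolar protein gene sle differed by -0.45 (95% interval -0.86 to -0.05, adjusted p = 0.103 by limma). It passed without Cbt replicate 1, at -0.71 (adjusted p = 0.00254 by limma), and with array weights, at -0.56 (adjusted p = 0.0122). Wdr24 and mio encode subunits of GATOR2, a complex that relays nutrient state to TOR. Wdr24 differed by -0.24 (95% interval -0.61 to 0.12) and mio by 0.19 (95% interval -0.27 to 0.65).

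Both matched entries of the 15 for ubiquitin missed the threshold. Uba1, the enzyme that activates ubiquitin, differed by -0.24 (95% interval -0.57 to 0.09), and it passed with array weights at an adjusted p of 0.0407 by limma. The interval for rdx, an adaptor of Cullin 3 in Hedgehog signalling, was -0.24 to 0.34 around a difference of 0.05. For the chromodomain helicase gene kis the difference was 0.38 with an adjusted p of 0.158 by limma. Dyrk3, a protein kinase gene, and CG31178 differed by 0.06 and -0.05, with intervals of -0.45 to 0.57 and -1.06 to 0.97. The CG31178 interval is wide enough to hold a doubling, so its level is poorly determined. No entry was matched in the lists for apoptosis (14 entries), cuticle and hair (32), ecdysone response (21) or wing pattern (27).

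The transcripts with the largest differences carry no gene name here, and whether any of them belongs to an overexpressed gene could not be checked. FBtr0077115 read 13.64, 13.48, 13.22 and 13.66 in Cbt and 8.30, 6.68, 7.04 and 7.22 in E2F1DP wings, and its control mean was 7.16 ± 0.56 (SD, n = 4). It was thus high in the Cbt line alone, with a difference of 6.19 (SE 0.38, adjusted p = 2.66e-13 by limma). FBtr0086927 read 14.59, 14.08, 14.26 and 14.45 in Cbt and 9.60, 7.31, 6.99 and 9.68 in E2F1DP wings, a difference of 5.95 (SE 0.82, adjusted p = 1.47e-06 by limma). Its E2F1DP arrays fell into a brighter and a dimmer pair, and its control mean was 8.79 ± 1.31 (SD, n = 4).

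In the opposite direction, FBtr0074485 read 7.97, 5.49, 5.53 and 6.10 in Cbt and 13.65, 13.34, 13.71 and 13.56 in E2F1DP wings. FBtr0075697 read 5.94, 6.51, 5.89 and 5.85 in Cbt and 12.35, 13.02, 13.05 and 12.53 in E2F1DP wings. Both were bright in E2F1DP wings and, apart from Cbt replicate 1 of FBtr0074485 and replicate 2 of FBtr0075697, under the dim level in Cbt and in control wings, whose means were 5.52 ± 0.50 and 5.60 ± 0.37 (SD, n = 4). The differences were -7.29 (SE 0.34, adjusted p = 5.32e-16 by limma) and -6.69 (SE 0.27, adjusted p = 2.27e-17). The calls of NaPi-III, SuUR, HDAC3, fend and Fatp1 were kept under all 20 alternatives tried. Those of these 4 transcripts were kept too. However, these 4 were picked for large differences without overlap in the same arrays, so this adds no support.

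The same contrast at the earlier stages compares means of other arrays, though all calls share the spread per transcript that the model pools over the 35 arrays, so they are not independent tests. At 24h the test called 23.4% of transcripts, 2237 of them with more signal in Cbt (14.5%) and 1378 with less (8.91%). The array medians at 24h were 10.02, 9.94, 9.79 and 9.80 in Cbt and 9.72, 9.68, 9.25 and 9.70 in E2F1DP wings. Whether the 24h split depended on scaling was not tested. At L3 it called 2.07%, with 1.32% above and 0.743% below E2F1DP. Of the 36h calls, 2045 were called in the same direction at 24h, which is 56.3% of the 36h calls and 56.6% of the 24h calls, and 40 were called in the opposite direction. With L3 the shared calls were 208, which is 5.72% of the 36h calls and 65% of the L3 calls, and 9 were opposite.

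Whether the difference between the lines itself changed was tested with the stage as an interaction in the same limma model. From 24h to 36h it changed for 637 transcripts (4.12%), with 209 changes towards Cbt (1.35%) and 428 towards E2F1DP (2.77%). That split depended on scaling: with each array centred on its median, 407 changes were towards Cbt and 208 towards E2F1DP, and the median change of all transcripts moved from -0.07 to 0.22. With slide as a term, 75 changes were towards Cbt and 102 towards E2F1DP. Quantile normalization of the deposited values gave 333 and 365. Replicate 3 of E2F1DP and replicate 3 of control at 24h had the lowest array medians, 9.25 and 9.28. Without these arrays the changes were 236 towards Cbt and 413 towards E2F1DP. From L3 to 36h the difference changed for 1328 transcripts (8.58%), with 534 towards Cbt (3.45%) and 794 towards E2F1DP (5.13%).

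Fatp1 and fend were the named genes whose difference changed from 24h to 36h. For Fatp1 it was 0.01 at L3, 0.52 at 24h and 1.80 at 36h, and the change after 24h was 1.28 (SE 0.24, adjusted p = 0.00124 by limma). The Fatp1 mean at 24h and at 36h was 11.75 and 13.27 in Cbt wings, 11.23 and 11.47 in E2F1DP wings, and 11.27 and 13.78 in controls. The difference of 0.52 at 24h had already passed the test (adjusted p = 0.0243 by limma). For fend the difference was -0.29 at L3, 0.72 at 24h and 2.34 at 36h, a change after 24h of 1.63 (SE 0.34, adjusted p = 0.00321 by limma). The fend mean at 24h and at 36h was 10.02 and 10.73 in Cbt wings, and 9.31 and 8.39 in E2F1DP wings, so the means moved in opposite directions.

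The difference in SuUR was -1.79 at 24h and -1.79 at 36h, with a change of 0.00 (95% interval -0.73 to 0.74). At L3 SuUR already differed by -1.05 (adjusted p = 0.035 by limma). HDAC3 likewise differed by -0.65 at 24h, and its change to 36h was -0.06 (95% interval -0.38 to 0.26).

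NaPi-III differed by -1.01 at L3 (adjusted p = 0.362), by -3.37 at 24h and by -3.76 at 36h, and the change from L3 to 36h was -2.75 (adjusted p = 0.00194 by limma, or 0.088 with slide as a term). In larvae its mean was 12.18 in Cbt, 13.19 in E2F1DP and 12.11 in control wings. By 36h these means were 8.16, 11.92 and 7.92, so the mean was lower at 36h than in larvae in every line, and least so in E2F1DP wings.

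FBtr0077115 kept nearly the same difference throughout, at 6.38, 6.41 and 6.19 from L3 to 36h. FBtr0074485 was bright in larval wings of all lines, with means of 11.29 in Cbt, 12.85 in E2F1DP and 11.33 in control wings. At 24h its mean was 6.74 in Cbt and 12.37 in E2F1DP wings. FBtr0075697 was near 6.21 in larval Cbt wings and at 7.56 in larval E2F1DP wings, and the difference from Cbt widened from -1.34 at L3 to -5.33 at 24h and -6.69 at 36h. These transcripts were chosen by their 36h differences, so larger values at 36h than earlier only describe them.

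**Figure D3:**
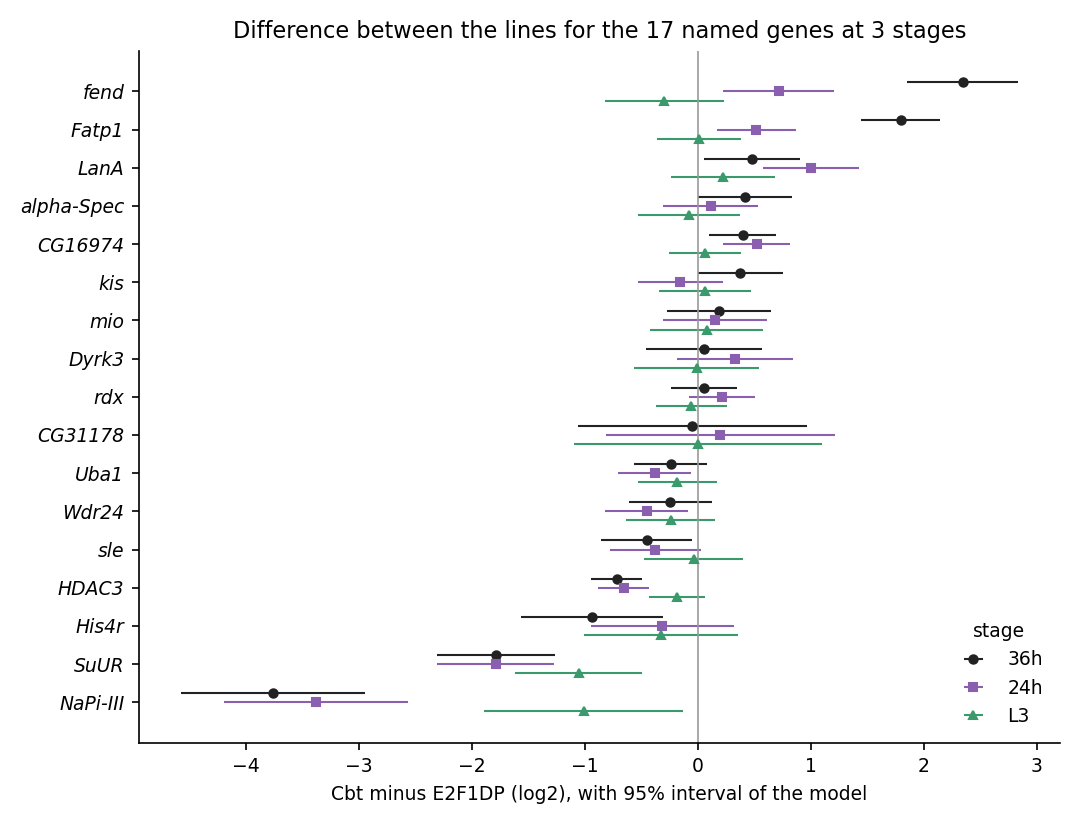
Difference between Cbt and E2F1DP wings (log2, horizontal axis) with its 95% interval from the limma model at L3, 24h and 36h for the 17 named genes, ordered by the 36h value. Fatp1 and fend move to the right from L3 to 36h, to 1.80 and 2.34, and SuUR sits at -1.79 at both pupal stages.

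The means of the 36h control arrays are not part of the contrast of the lines, although these arrays add to its pooled spread. A fit of the 8 compared arrays alone called 1687 transcripts higher and 1460 lower. Cbt differed from control for 7.3% of transcripts and E2F1DP for 23.6% (12.3% higher and 11.3% lower) by limma at 36h, with both comparisons sharing the same 4 controls. None of the 17 named genes passed between Cbt and control. Fatp1 came nearest, at -0.51 (adjusted p = 0.0636 by limma). It passed without Cbt replicate 1 (-0.61, adjusted p = 0.0377) or 3 (-0.66, adjusted p = 0.0114), and also with median centring, with array weights or without the dimmest transcripts. His4r, at -0.77 (adjusted p = 0.152), passed without Cbt replicate 3 with an adjusted p of 0.0467, and so did sle (0.60, adjusted p = 0.0217).

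Between E2F1DP and control, NaPi-III was higher (95% interval of the difference 3.19 to 4.82), as were SuUR by 1.52 on the log2 scale and HDAC3 by 0.94, and Fatp1 differed by -2.31, fend by -1.87 and CG16974 by -0.54, all at an adjusted p of at most 0.00514 by limma. The gene sle, not called between the lines, was also higher in E2F1DP than in control wings, by 0.78 (adjusted p = 0.00297 by limma, or 0.0603 with slide as a term). His4r differed from control by 0.17 in E2F1DP wings (adjusted p = 0.813 by limma).

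For 2852 of the 3634 calls between the lines (78.5%) the control mean was closer to the Cbt mean than to the E2F1DP mean. This held for 1349 of the transcripts higher in Cbt (71.5%) and 1503 of those lower in Cbt (86.1%), and for 55.8% of the transcripts that were not called. Over the calls, the median distance from control was 0.30 for Cbt and 0.82 for E2F1DP. In the other 782 calls (21.5%) Cbt was the line farther from control, and in 191 of these the control lay beyond E2F1DP.

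**Figure D4:**
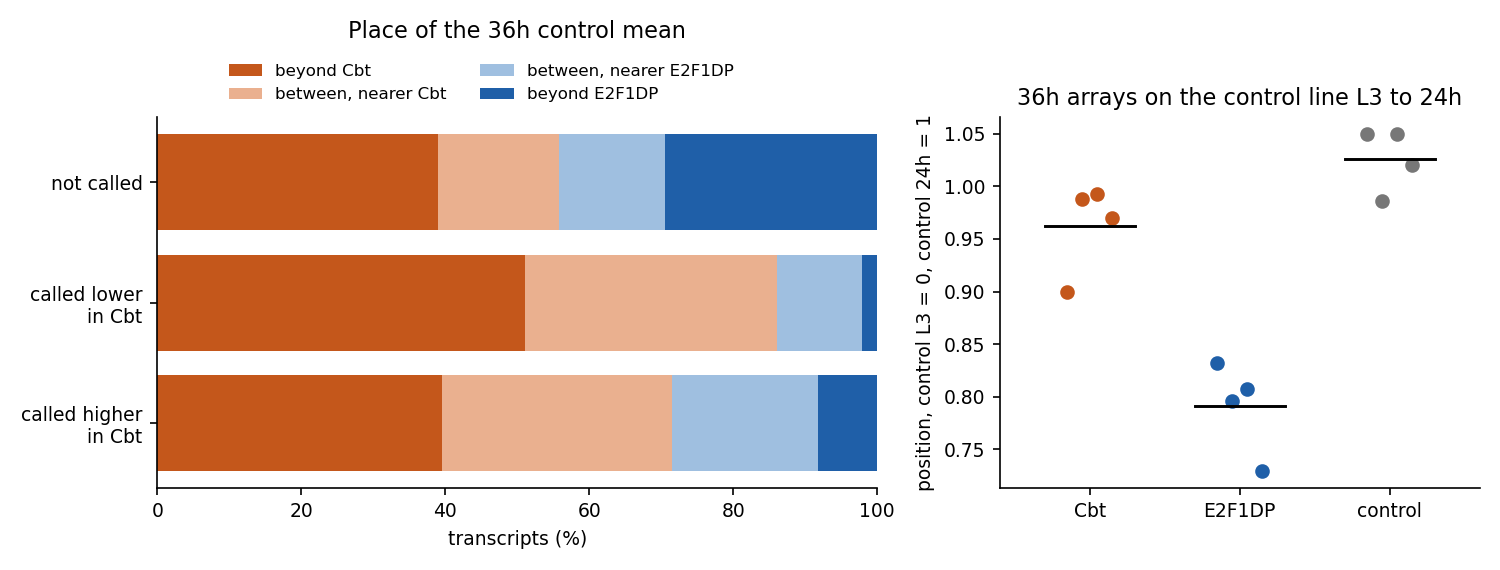
Left, share of transcripts (%) by the place of the 36h control mean relative to the Cbt and E2F1DP means, for calls in each direction and for transcripts not called. Right, position of each 36h array (points, with group means as lines) on the line from control L3 (0) to control 24h (1); the Cbt arrays lie at 0.90 to 0.99 and the E2F1DP arrays at 0.73 to 0.83.

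Calls between the lines were also sorted by what the transcript did in control wings over time, a change computed from control means alone, with the spread per transcript pooled over all 35 arrays of the model. Of 1629 transcripts (10.5% of all) that rose in control wings from 24h to 36h, 48.9% were higher in Cbt than in E2F1DP at 36h and 3.38% were lower, with a median difference of 0.59. Of 1958 (12.7%) that fell in control wings over that interval, 8.78% were higher and 35.3% lower, with a median of -0.29. Over all transcripts the shares were 12.2% and 11.3% and the median 0.01. Without Cbt replicate 1, 39.8% of the transcripts that rose were higher in Cbt.

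The classes were also formed over the earlier interval and over both intervals. Of 2712 transcripts (17.5% of all) that rose in control wings from L3 to 24h, 29.9% exceeded E2F1DP in Cbt wings at 36h and 5.27% were below it. Of 2942 (19%) that fell, 8.29% were higher and 31.6% lower. From L3 to 36h, 36.8% of the 3320 that rose (21.5% of all) were higher in Cbt, and 31.9% of the 3732 that fell (24.1%) were lower.

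**Figure D5:**
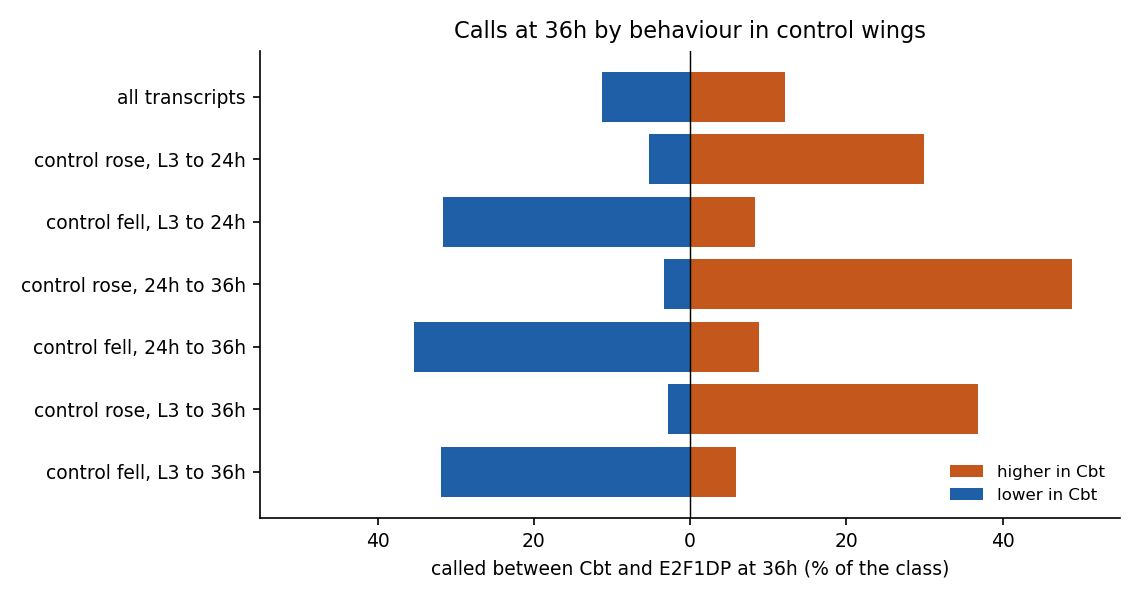
Share of each class (%) called higher in Cbt (right of 0) or lower in Cbt (left of 0) than E2F1DP at 36h, for all transcripts and for those that rose or fell in control wings over each interval. The class that rose from 24h to 36h has the longest bar to the right, at 48.9%, and the class that fell over that interval the longest to the left, at 35.3%.

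Within each line, the transcripts that rose in control wings after 24h had a median change of 0.64 in Cbt and 0.39 in E2F1DP wings between 24h and 36h. The control median for them was 1.07, from the values that chose them. Of these 1629, 870 rose by the test in Cbt and 537 in E2F1DP wings, where 8.27% and 9.18% of all transcripts rose. Of the 1958 that fell in control wings, 1108 fell in Cbt and 477 in E2F1DP wings, with median changes of -0.61 and -0.29, where 12.7% and 6.73% of all transcripts fell. The class that rose earlier in controls, between L3 and 24h, went the other way. After 24h, 911 of its 2712 transcripts rose in E2F1DP and 606 in Cbt wings, with median changes of 0.36 and 0.11. For the 2942 with an early control decrease, 602 fell in E2F1DP and 879 in Cbt wings after 24h. With control classes from L3 to 36h, 1103 of 3320 risers rose in E2F1DP and 1089 in Cbt wings. Among the 3732 fallers, 777 and 1383 fell.

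A set of 157 transcripts was higher in Cbt at 36h with a difference above that at 24h by the interaction test. Their median difference went from -0.07 at 24h to 1.80 at 36h, values that chose the set. In control wings 130 of them (82.8%) rose from 24h to 36h and 5 fell, where 10.5% of all transcripts rose and 12.7% fell. The opposite set held 198 transcripts, lower in Cbt at 36h by more than at 24h, and 125 of these (63.1%) fell in control wings and 2 rose. The size of both sets depended on scaling and slide: with median centring they held 255 and 84 transcripts, and with slide as a term 53 and 41. The share of the first set that rose in control wings was between 75.5% and 84.8% under the 4 alternatives tried, and the share of the opposite set that fell was between 48.8%, with slide as a term, and 70.8%.

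The difference also closed or shrank for some transcripts. In 247 it was higher in Cbt at 24h and smaller at 36h, with the median going from 1.92 to 0.24, and in 69 it was lower at 24h and nearer 0 or reversed at 36h. Of the 247, 58 were still called higher in Cbt at 36h, and of the 69, 9 were still called lower. In the first of these sets the median change from 24h to 36h was 1.37 in E2F1DP wings and -0.15 in Cbt wings. The same arrays chose both sets, so these medians only describe them. In control wings 79 of the 247 (32.0%) fell and 30 (12.1%) rose, and of the 69, 6 fell and 33 rose. The sizes depended on scaling and slide, at 133 and 190 transcripts with median centring and 68 and 33 with slide as a term.

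Transcripts that were dim in one line at 36h were set beside the control levels at each stage. Of the 147 that were higher in Cbt and dim in E2F1DP, the control was above the dim level at 36h in 90 and dim in 57, and it was above that level at 24h in 59 and at L3 in 50. Of the 111 that were lower in Cbt and dim there, the control was dim at 36h in 94, and was above the dim level in 58 at L3 and in 42 at 24h. Of all transcripts, the control mean was above the dim level for 72.9% at L3, 75.2% at 24h and 74.1% at 36h.

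As a single measure per array, each 36h array was placed on the line that runs from the control mean at L3 (0) to the control mean at 24h (1) over all transcripts. The Cbt arrays lay at 0.90, 0.99, 0.99 and 0.97 and the E2F1DP arrays at 0.83, 0.80, 0.81 and 0.73, while the 36h controls lay between 0.99 and 1.05. All Cbt arrays were above all E2F1DP arrays. The means were 0.96 ± 0.04 and 0.79 ± 0.04 (SD, n = 4 each), and the difference of 0.171 had a p of 0.0286 in a two-sided exact permutation test, the smallest that 4 against 4 arrays can give. On the line from control L3 to control 36h the means were 0.88 and 0.64, a difference of 0.237 with the same exact permutation p of 0.0286.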

How the data were processed

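Total RNA of dissected wings was hybridised to 1-colour NimbleGen arrays. The authors deposited an intensity per transcript and array, produced with RMA, per the submitters' processing notes, and a series table of the same values as log2 numbers; the largest difference between them was 5.00e-09. RMA settings, its version, the arrays run together and the annotation release were not given in the sources used here. Of the transcripts, 10111 have 5 probes, 5359 have 4 and 3 have 3. Detection calls were not used. Precision is limited by how many arrays each group has. No pair of arrays was identical (lowest root mean square difference 0.31).

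The deposited log2 values were analysed with limma 3.58.1 in R 4.3.3: 1 model of 9 group means on 35 arrays, with empirical Bayes (26 residual and 2.86 prior degrees of freedom) and Benjamini-Hochberg adjustment over 15473 transcripts per contrast, with calls at an adjusted p under 0.05. The model was tested on simulated data. Positions of arrays were computed in Python 3.11.15 with numpy 2.4.6, pandas 2.3.3 and scipy 1.17.1, and figures with matplotlib 3.10.9.

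IDs were matched to the synonyms of the RefSeq gene table. Since fewer than 100 IDs were tied to 1 gene, the rule named all 17 that were, and, of unnamed IDs called without overlap, the top 2 in each direction. Of 322 entries in 19 gene lists, 13 were matched, in 6 lists. The members, lists and tests were chosen with earlier results of these data known.

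Replicate numbers did not pair the samples: deviations from the group means correlated at 0.14, 0.06, 0.10 and -0.11 for the 4 numbers. Alternatives covered scaling, dim transcripts, slide, replicate number, array weights, the prior, the arrays in the fit and each array left out. The 4 alternatives for the control classes, the place of the control and the sets that opened or closed were chosen after seeing the data. Sequences and coordinates were not used, since the genome build of the array is not given in the sources used here.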

Additional observations from a re-analysis of the deposited data

Results flagged for a closer look

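Among the 42 groups of 4 arrays checked for the 21 named transcripts at 36h, 5 held an array set apart from the others by Dixon's criterion, and chance gives about 1 such group in 20. In the Cbt group, replicate 1 stood apart in Uba1 at a log2 level of 14.54 and replicate 2 in FBtr0075697 at 6.51. In the E2F1DP group, replicate 1 stood apart in CG31178 at 7.70 and in alpha-Spec at 13.24, and replicate 2 in CG16974 at 13.09.

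The difference between the lines changed with stage, by the interaction test of limma, for these transcripts. FBtr0075697 and FBtr0074485 were chosen by their 36h differences, so their changes only describe them. From 24h to 36h the change was 1.28 in Fatp1 and 1.63 in fend, both kept under all 27 alternatives tried, and -1.36 in FBtr0075697 (adjusted p = 0.0367) and -1.66 in FBtr0074485 (adjusted p = 0.042), whose calls ended under 16 and 19 of the 27, including 11 and 14 of the 16 that leave out 1 array. From L3 to 36h the change was 1.78 in Fatp1, 2.64 in fend, -2.75 in NaPi-III, -5.35 in FBtr0075697 and -5.73 in FBtr0074485, of which the NaPi-III call ended under 1 of 26 alternatives (slide as a term) and the others under none. In HDAC3 it was -0.53 (adjusted p = 0.036 by limma), and that call ended under median centring (adjusted p = 0.281), with slide as a term (adjusted p = 0.147) and without 12 of 15 single arrays.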

How the results depend on the processing

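The 36h counts of calls between the lines moved by less than 1.5 times under all 20 alternatives: without single arrays the total was 3109 to 3607, with 1564 to 1887 higher and 1516 to 1720 lower. With the replicate block they were 1951 and 1777, and with the replicate block in a fit of the 8 arrays 1553 and 1396. The stage changes were less stable, and the cause was not tested. From 24h to 36h, slide as a term gave 177 calls (75 higher, 102 lower), array weights 974 (662 lower) and the compared groups alone 371 (138 and 233). Median centring gave 407 higher and 208 lower, and quantile normalization 333 and 365. From L3 to 36h, slide gave 650 (272 and 378), array weights 2792 (1299 and 1493), and the compared groups alone 872 higher. Without single arrays the totals were 511 to 676 (164 to 226 higher, 335 to 453 lower) and 1010 to 1419 (386 to 588 and 623 to 831). The position difference was 0.151 to 0.193 without single arrays, where 7 arrays cannot reach a p of 0.05.

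None of the values that changed sign was called, as reported or under the alternative. Between the lines at 36h, CG31178 was 0.034 with slide as a term, 0.010 with array weights and -0.30 to 0.45 without single arrays, mio -0.011 with array weights and -0.046 to 0.30 without single arrays, and Dyrk3 -0.083 to 0.15 without single arrays. In the change from 24h to 36h, median centring gave 0.16 for CG16974, 0.23 for HDAC3 and 0.070 for FBtr0077115. SuUR was -0.0034 with slide as a random block and -0.18 with array weights. Without single arrays this change was -0.15 to 0.15 for SuUR, -0.13 to 0.0089 for HDAC3, -0.51 to 0.11 for FBtr0077115 and -0.19 to 0.71 for FBtr0086927. The change of FBtr0077115 from L3 was 0.15 with slide as a term and -0.40 to 0.14 without single arrays. Against control, FBtr0077115 in E2F1DP was -0.33 with slide as a term. Without single arrays it was -0.18 to 0.39, FBtr0086927 in E2F1DP was -0.89 to 0.13, and NaPi-III in Cbt was -0.12 to 0.62.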
